A study of Mus musculus with 2 samples.

Results

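Migratory dendritic cells marked by *Ccr7* were described in 2 single-cell RNA sequencing libraries of mouse optic nerve. A barcode was kept with 500 to 5000 detected genes, 500 to 20000 UMIs (unique molecular identifiers, counted transcripts) and at most 5% mitochondrial UMIs. A kept barcode was a member when it held at least 1 *Ccr7* UMI, at least 3 UMIs of *Fscn1*, *Ccl22* and *Cacnb3* together, at least 5 UMIs of the MHC class II chains *H2-Aa*, *H2-Ab1* and *H2-Eb1* together, and at most 1 UMI of the T cell receptor complex genes *Cd3d*, *Cd3e* and *Cd3g*. This gave 103 members among 25652 kept cells, a share of 0.402% (exact Clopper-Pearson 95% interval 0.328 to 0.487). The library C-ON held 32 of 8834 cells (0.362%, 0.248 to 0.511) and the library FMC_new 71 of 16818 (0.422%, 0.330 to 0.532), and the intervals overlapped. Members were chosen on measured transcripts, so their levels are given as a description, and no test was made.

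Both libraries were labelled as optic nerve of Nf1OPG mice, which carry a floxed and a mutant *Nf1* allele and GFAP-Cre on a C57BL/6 background and develop optic gliomas. Cre is driven by the GFAP promoter, whereas every cell of these mice, dendritic cells among them, carries the mutant allele by genotype. Nerves of 10 mice, 12 weeks old, were pooled for a suspension, and values of single animals cannot be had from a pool. The title of C-ON carries the word control without saying what it was a control for, no treatment is named for either library, and no other genotype was analysed here. The 2 libraries were taken as samples of the same condition and their values are given apart, C-ON first and FMC_new second wherever a pair of values stands without a name.

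Dendritic cells take up antigen in tissues and present it to T cells on MHC molecules. On maturation they gain the chemokine receptor *Ccr7*, which guides them along *Ccl19* and *Ccl21* toward lymph nodes, and the actin-bundling protein *Fscn1*, while costimulatory ligands go up and uptake receptors go down. Type 1 dendritic cells carry *Xcr1* and *Clec9a* and depend on *Batf3* and *Irf8*. Type 2 dendritic cells include cells with *Cd209a* and *Mgl2*. Mature cells of both kinds share the *Ccr7* program, also called the mature regulatory program for its checkpoint ligands.

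The markers of the label were found as the rule sets them. *Ccr7* lies on chr11:99144196-99155077 and the genes of the program sum lie on chr5:142960343-142973185 (*Fscn1*), chr8:94745590-94751699 (*Ccl22*) and chr15:98630840-98644529 (*Cacnb3*), all in the mm10 (GRCm38) build. The lowest, median and highest *Ccr7* counts of a member were 1, 11 and 116 UMIs in C-ON and 1, 21 and 66 in FMC_new. For *Fscn1* they were 0, 9 and 127 UMIs and 0, 8 and 104 UMIs. *Ccl22*, a chemokine that attracts *Ccr4*-bearing T cells, had 0, 4 and 69 UMIs and 0, 3 and 44 UMIs. *Cacnb3*, a calcium channel subunit, had 0, 1 and 20 UMIs and 0, 2 and 18 UMIs. Members thus ran from cells with 1 *Ccr7* UMI to cells with many. *Fscn1* does not mark dendritic cells alone in this tissue: it stood at 534 and 420.4 CPM in oligodendrocyte-rule cells, which were taken as the background for free RNA and hold at least 5 UMIs of *Mog*, *Mag* and *Cldn11* together and no *Ptprc* UMI. Genes that the rule did not use also bear on the label. *Flt3*, the receptor of the dendritic growth factor *Flt3l*, was found in 24 of 32 and 37 of 71 members, and *Zbtb46*, a transcription factor of conventional dendritic cells, in 19 of 32 and 38 of 71, against 0.103% and 0.611% and 0.413% and 0.611% of oligodendrocyte-rule cells.

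Just inside the limits, 18 members had 1 *Ccr7* UMI and 10 had a program sum of 3. Just outside, 20 cells had a program sum of 2 and met the other limits, and 4 had 4 MHC class II UMIs. A further 411 cells met every limit but *Ccr7*. Of these, 185 held at least 5 UMIs of *Mog*, *Mag* and *Cldn11*, and 181 held more than 3 UMIs of *C1qa*, *C1qb* and *C1qc*. These cells without *Ccr7* had 4.33 and 83.2 CPM of *Il12b* against 1533 and 2004 CPM in members. Their *C1qa* level was 1475 and 2745 CPM against 81.5 and 96.3 CPM, so the *Il12b* level is not one of dendritic cells alone. CPM is a gene's UMIs, summed over the cells of a population in a library, per 1000000 of their UMIs.

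The libraries held 10845 and 21341 barcodes with 85101211 and 129113325 UMIs. Members had a median of 10493 and 7823 UMIs. The libraries shared 296 barcodes, of which 188 were kept in both, and 0 barcodes were members in both, while 2 member barcodes of 1 library also occurred in the other. Scrublet, a doublet caller, called 6 of 8834 and 0 of 16818 cells and 0 members, which is under 0.5% of cells, so it was taken not to have worked and doublets remain among the cells. Free RNA of pituitary hormone genes was present in FMC_new: *Gh* was found in 71 of 71 members there, at a median of 12 UMIs and 1842 CPM. It had 0 UMIs in the members of C-ON. The 5672 CPM of *Gh* in oligodendrocyte-rule cells of FMC_new is not free RNA alone. Their highest cell held 10696 UMIs of the hormone genes *Gh*, *Prl*, *Pomc* and *Cga*, against a median of 18. In FMC_new 1 *Cd209a* cell held 4657 *Gh* UMIs and 1 *Xcr1* cell 9349, or 22.15% and 41.99% of those of their populations.

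A part of the members held transcripts of another cell type. Barcodes with more than 3 UMIs of *C1qa*, *C1qb* and *C1qc*, more than 1 of *Cd79a* and *Ms4a1*, or at least 5 of *Mog*, *Mag* and *Cldn11* are called mixed here, a limit set after seeing the data. They were 9 of 32 and 13 of 71 members, 22 of 103 in all, with 12 by the oligodendrocyte genes, 12 by the B cell genes and 4 by the C1q genes. The mixed barcodes made up 11 of the 17 members whose program limit was met by *Fscn1* alone. In C-ON, 3 members carried 1369, 1602 and 1266 UMIs of the immunoglobulin segment *Igkv10-96*, with 140, 183 and 111 UMIs of *Jchain*, while no other member of C-ON had over 4 UMIs of *Igkv10-96*. The part of these barcodes in the results was not tested beyond leaving them out. Results are given with all members, and where a gene described below changes its call without the mixed barcodes this is stated.

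Members fell into a part with many *Ccr7* UMIs and a part with few. At least 10 *Ccr7* UMIs were found in 17 of 32 and 41 of 71 members, 58 in all, and 45 had 1 to 9. The limit of 10 was set after seeing the data, and 15 members lay near it with 5 to 14 UMIs. Mixed barcodes were 4 of 58 in the first part and 18 of 45 in the second.

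Several genes of the maturation program were higher in members with many *Ccr7* UMIs. *Il4i1*, an enzyme that breaks down aromatic amino acids, stood at 434 and 448 CPM in members with at least 10 *Ccr7* UMIs, and 18.6 and 124 CPM in those with 1 to 9. *Nudt17* stood at 464 and 342 CPM against 55.9 and 29.3 CPM, and was detected in 49 of 58 against 8 of 45 members. *Relb*, a subunit of noncanonical NF-kB, had 610.4 and 563 CPM against 186 and 146 CPM. For each of these genes both libraries had the higher level in members with many *Ccr7* UMIs. *Il12b* was detected in 44 of 58 against 12 of 45 members, at 2354 and 3077 CPM against 665 and 673 CPM.

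*Cd209a*, *Wdfy4* and *Cd74* ran the other way. *Cd209a* was found in 0 of 58 members with at least 10 *Ccr7* UMIs, which allows a share of up to 5.17%, and in 8 of 45 with fewer. *Wdfy4*, needed for cross-presentation by type 1 cells, was found in 6 of 58 against 26 of 45, at 41.1 and 26.5 CPM against 553 and 241 CPM. The invariant chain gene *Cd74* stood at 13335 and 18999 CPM against 23806 and 23258 CPM. Without the mixed barcodes the members with 1 to 9 *Ccr7* UMIs were 27, and *Cd74* in them was 32282 and 28825 CPM, *Wdfy4* 832 and 307 CPM and *Relb* 236 and 211 CPM. Other subset and MHC class II pathway genes were divided. The class II pathway gene *H2-DMa* shared this order, at 147 and 304 CPM against 534 and 497 CPM. So did the type 2 gene *Mgl2*, at 5.87 and 38.3 CPM against 497 and 190 CPM. *Irf8*, *Batf3* and *Ifi30* had the reverse order. *Irf8*, a transcription factor of type 1 cells, stood at 1233 and 757 CPM in members with many *Ccr7* UMIs against 422 and 263 CPM in those with few, and *Batf3* at 182 and 239 CPM against 80.8 and 128 CPM. *Ifi30*, a lysosomal thiol reductase of the class II pathway, was at 2266 and 2823 CPM against 944 and 1814 CPM.

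**Figure D1:**
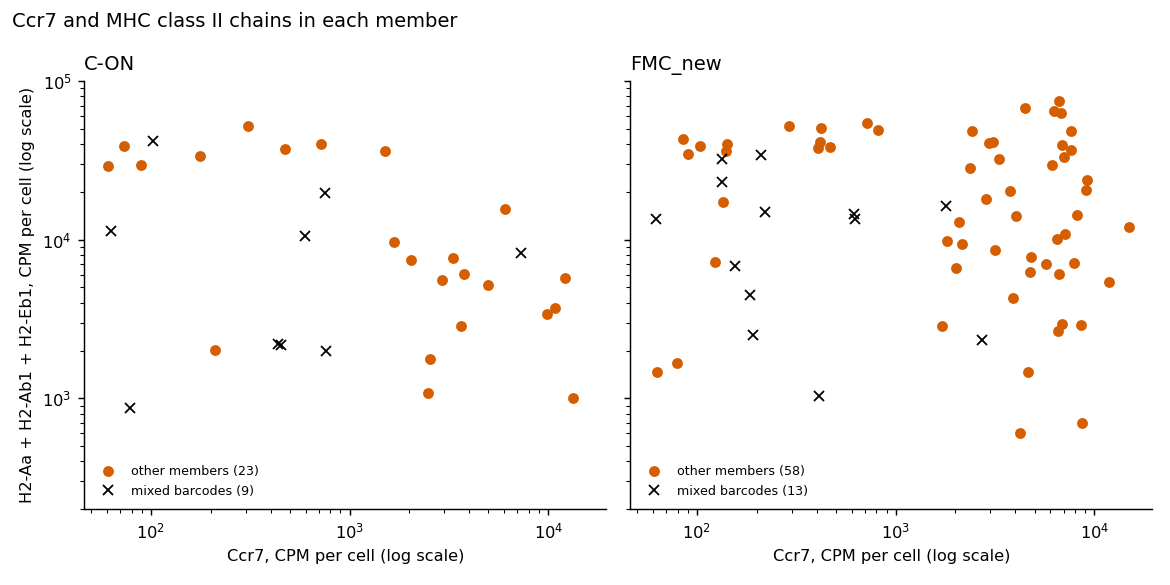
Each point is a member, with its *Ccr7* level on the horizontal axis and the summed level of *H2-Aa*, *H2-Ab1* and *H2-Eb1* on the vertical axis, both in CPM of that cell on log scales, for C-ON (left) and FMC_new (right). Crosses are the 9 and 13 mixed barcodes. Other members with few *Ccr7* transcripts lie mostly at high MHC class II levels, and those with many spread over the whole range. Both axes were used by the rule.

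Set against the other dendritic cells of the same libraries, members held more of the maturation genes, of *Il12b* and *Ccl5* and of the PD-1 ligands. Uptake receptors were lower mainly against *Cd209a* cells. *Cd209a* dendritic cells (136 and 506 cells) held *Cd209a* and neither *Xcr1* nor *Clec9a*, *Xcr1* dendritic cells (106 and 406 cells) held *Xcr1* or *Clec9a* and no *Cd209a*, and both met the same limits on MHC class II and Cd3. They were also limited to 3 C1q and 1 B cell UMIs, which members were not. Their median depths were 6269.5 and 6602 UMIs, and 9060.0 and 9369 UMIs. A gene is called higher below when its CPM was at least 2 times that of the other population in each library, and lower when it was at most 1/2 in each, which is a rule of size and no test. In the ratio, a population without a UMI was set to a floor of 3 UMIs in that library. All intervals cover counting error only, and cells of a suspension are not replicates. Genes of the rules stayed out, and a gene was compared with at least 10 UMIs in the 2 populations together in each library.

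Against *Cd209a* dendritic cells, 606 of 8543 compared genes were higher in members (7.09%) and 478 were lower (5.6%). Without the mixed barcodes these shares were 7.83% and 7.59%. Against *Xcr1* dendritic cells, 803 of 8711 genes were higher (9.22%) and 461 lower (5.29%), and without the mixed barcodes 7.06% and 7.48%. Both comparisons share the members. The median log2 ratio of all compared genes, as the mean of the libraries, was 0.07 against *Cd209a* cells and -0.02 against *Xcr1* cells, and each list below is read beside these values and the shares above. The lists and members were chosen with earlier results of these data known, so their counts are a description.

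**Figure D2:**
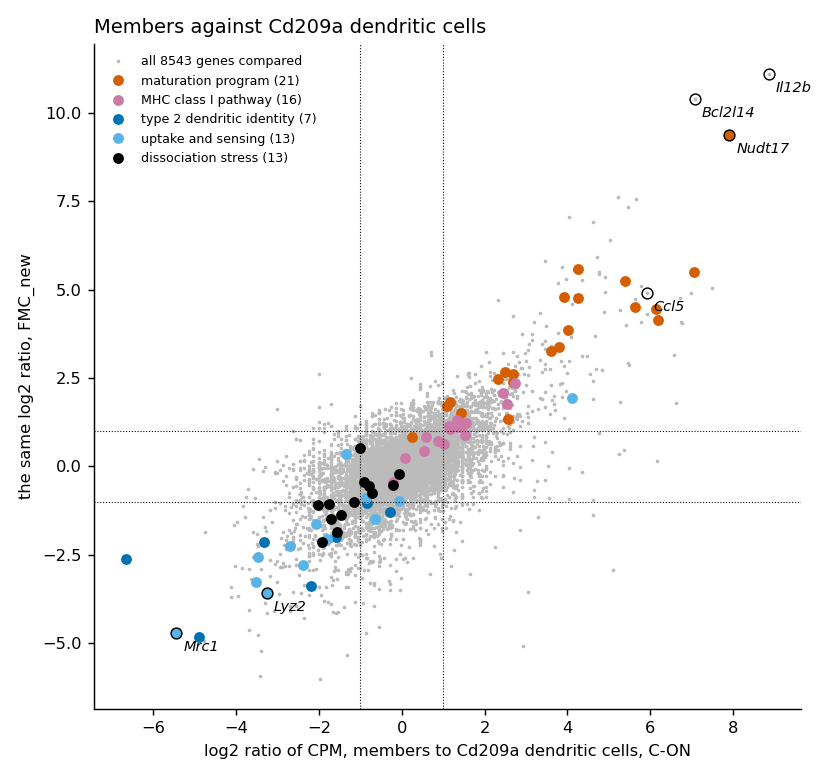
The log2 ratio of CPM in members to CPM in *Cd209a* dendritic cells is plotted for C-ON (horizontal) and FMC_new (vertical), with 1 point for each of 8543 compared genes and 5 gene lists in colour. Dotted lines mark a ratio of 2 and of 1/2. Genes of the maturation program lie at the upper right, those of uptake and of type 2 identity mostly at the lower left.

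The maturation program, a list of 25 genes known from *Ccr7* dendritic cells of other tissues, was higher almost throughout. Of 21 compared genes 20 were higher and 0 lower than in *Cd209a* cells, with a median log2 ratio of 3.59, and 22 of 22 were higher than in *Xcr1* cells, with a median of 3.64. The counts were 20 of 21 and 21 of 21 without the mixed barcodes. *Marcksl1*, a regulator of actin, was the exception against *Cd209a* cells, at 984 and 1103 CPM in members, 833 and 617 CPM in *Cd209a* cells and 179.8 and 156 CPM in *Xcr1* cells.

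*Nudt17*, a hydrolase, was at 266 CPM (95% interval 213 to 327) in C-ON and 202 CPM (168 to 241) in FMC_new. *Cd209a* cells had 1 and 1 UMIs of it and *Xcr1* cells 0 and 6 UMIs, so few of its transcripts were found in the other dendritic cells. *Il4i1* was at 232 and 304 CPM in members, 3.31 and 13.8 CPM in *Cd209a* cells and 0 and 4.40 CPM in *Xcr1* cells. *Socs2*, a feedback inhibitor of cytokine signalling, was at 160.0 and 157 CPM in members, 2.20 and 8.86 CPM in *Cd209a* cells and 0 and 3.02 CPM in *Xcr1* cells. Both genes were thus low in the other dendritic cells of both libraries. Abundant genes of the list differed by smaller factors. *Tmem123*, a surface mucin, was at 1141 and 1038 CPM in members, 93.7 and 109 CPM in *Cd209a* cells and 52.7 and 67.9 CPM in *Xcr1* cells. *Basp1*, a membrane-bound signalling protein, was at 1216 and 1217 CPM in members, 188 and 231 CPM in *Cd209a* cells and 248 and 276 CPM in *Xcr1* cells. *Cd63*, a protein of late endosomes, was at 498 and 712 CPM in members, 30.9 and 48.9 CPM in *Cd209a* cells and 23.9 and 35.5 CPM in *Xcr1* cells, and its level in oligodendrocyte-rule cells was 275 and 504 CPM. In every named case the members of C-ON and of FMC_new both stood above both comparison populations of their own library. *Apol7c* and *Slco5a1* had too few UMIs to be compared, with 9 and 31 UMIs and 8 and 10 UMIs in members and no more than 1 UMI in the other dendritic cells of either library.

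**Figure D3:**
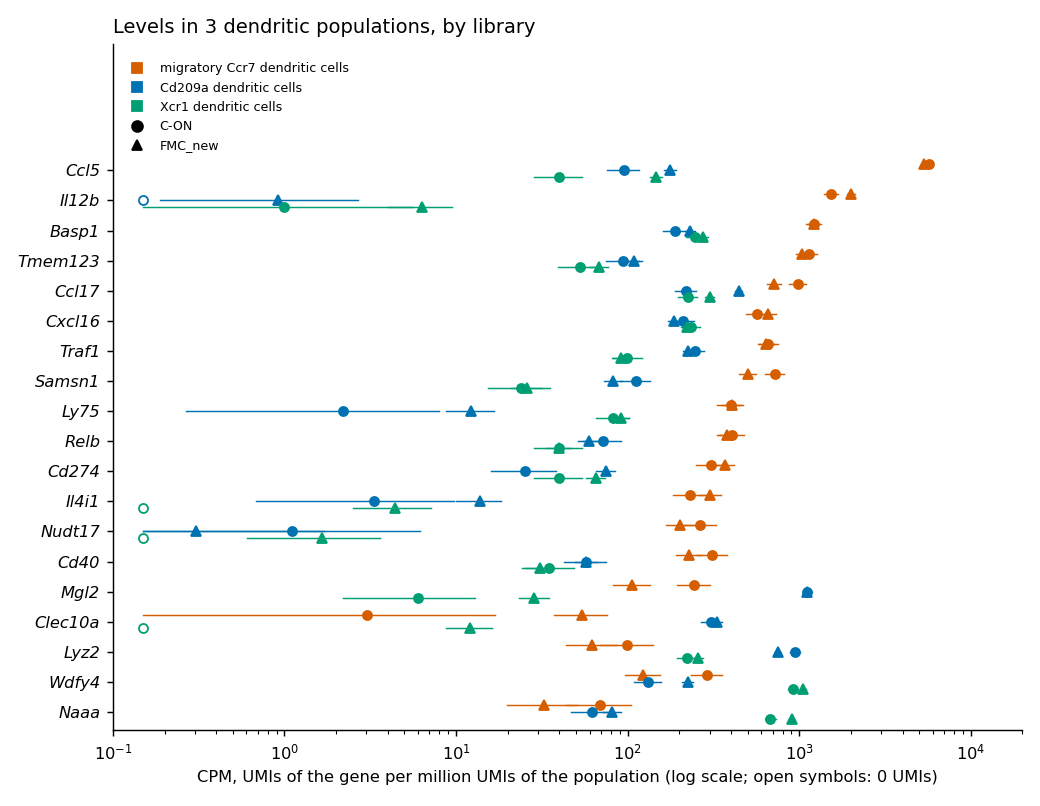
CPM of 19 genes on a log scale in members, *Cd209a* dendritic cells and *Xcr1* dendritic cells, with a circle for C-ON and a triangle for FMC_new. Lines are exact Poisson 95% intervals, and open symbols at the left stand for 0 UMIs. The upper 14 genes are highest in members of both libraries, while *Mgl2*, *Clec10a* and *Lyz2* are highest in *Cd209a* cells, and *Wdfy4* and *Naaa* in *Xcr1* cells.

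*Il12b*, the p40 subunit shared by interleukin-12 and interleukin-23, was the cytokine gene that most set members apart. It lies on chr11:44400063-44414033. It was at 1533 CPM (95% interval 1403 to 1672) in C-ON and 2004 CPM (1893 to 2119) in FMC_new, and was found in 20 of 32 and 36 of 71 members. *Cd209a* cells held 0 and 3 UMIs and *Xcr1* cells 1 and 23 UMIs, and oligodendrocyte-rule cells had a UMI in 0.0344% and 0.0382% of cells. In FMC_new the level in members was 317 times (95% interval 210.3 to 502) that in *Xcr1* cells. In C-ON *Cd209a* cells were at 0 UMIs, and with the floor of 3 UMIs the ratio to them was 464, which is not a bound. Members made up 0.362% and 0.422% of kept cells and held 66.8% and 73.2% of all *Il12b* UMIs of kept cells. The UMIs were unevenly spread, since 1 member held 27.4% of them in C-ON and another 12.3% in FMC_new. The partner subunits were not seen at a like level: *Il12a*, which completes interleukin-12, had 0 and 0 UMIs, and *Il23a* had 0 and 5 UMIs.

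The cytokine list, *Il12b* included, gave a mixed picture, with 3 of 12 compared genes higher and 1 lower than in *Cd209a* cells, and 5 higher and 1 lower of 11 against *Xcr1* cells. *Il15*, which sustains memory T cells and NK cells, was at 75.5 and 80.0 CPM in members, 17.6 and 10.4 CPM in *Cd209a* cells and 14.9 and 18.4 CPM in *Xcr1* cells, and its receptor chain *Il15ra*, which presents it, at 169 and 121 CPM in members, 12.1 and 11.6 CPM in *Cd209a* cells and 12.9 and 14.6 CPM in *Xcr1* cells. Both were higher than in either population. *Il1b* was at 1277 and 873 CPM in members, 3385 and 3342 CPM in *Cd209a* cells and 221 and 476 CPM in *Xcr1* cells, lower than in *Cd209a* cells in both libraries, and without the mixed barcodes also higher than in *Xcr1* cells. *Ebi3* and *Tnf* were higher than in *Xcr1* cells only: *Tnf* was at 254 and 181 CPM in members, 267 and 247 CPM in *Cd209a* cells and 15.9 and 39.0 CPM in *Xcr1* cells. *Csf1* was called higher in members at 8 and 12 UMIs, and without the mixed barcodes it had too few UMIs to be compared. *Il10* had 0 and 1 UMIs in members, too few to compare, and *Il6*, with 6 and 8 UMIs, was not called.

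Among the chemokines, *Ccl5* was high in members and *Ccl2* and *Ccl7*, which attract monocytes, were lower than in both populations. *Ccl5*, which attracts T cells and lies on chr11:83525778-83530518, was at 5710.1 CPM (95% interval 5456 to 5973) in C-ON and 5317 CPM (5136 to 5502) in FMC_new. It was at 94.8 and 176 CPM in *Cd209a* cells and 39.7 and 146 CPM in *Xcr1* cells, and was found in 23 of 32 and 60 of 71 members, against 4.66% and 22.6% of oligodendrocyte-rule cells. The ratio to *Cd209a* cells was 60.2 times (95% interval 48.5 to 75.7) in C-ON and 30.2 times (95% interval 27.6 to 33.1) in FMC_new. At an equal depth of 1000 UMIs a cell, 62.5% and 62.0% of members had a *Ccl5* UMI, against 4.44% and 12.2% of *Cd209a* cells.

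*Cxcl16*, a ligand of *Cxcr6* on effector T cells, was at 567 and 661 CPM in members, 212 and 186 CPM in *Cd209a* cells and 234 and 222 CPM in *Xcr1* cells, higher than in either population. *Cxcl9*, a ligand of *Cxcr3*, was at 308 and 322 CPM in members, 76.0 and 82.8 CPM in *Cd209a* cells and 339 and 253 CPM in *Xcr1* cells, higher than in *Cd209a* cells only. *Ccl17*, which shares the receptor *Ccr4* with *Ccl22* and lies beside it on chr8:94810453-94812036, was at 978 and 715 CPM in members, 218 and 444 CPM in *Cd209a* cells and 224 and 300.1 CPM in *Xcr1* cells. Its ratio to *Cd209a* cells was 4.48 and 1.61 times, under the limit in FMC_new, so it was higher only against *Xcr1* cells. Of the 103 members, 57 held UMIs of both *Ccl17* and *Ccl22*, 8 of *Ccl17* alone and 18 of *Ccl22* alone. *Ccl22* was used by the rule, so these counts depend on how members were chosen. The 6 genes lower than in *Cd209a* cells were *Ccl2*, *Ccl4*, *Ccl6*, *Ccl7*, *Ccl9* and *Cxcl10*, of 13 compared. Against *Xcr1* cells 5 of 12 were higher, *Ccl9* among them with *Ccl17*, *Ccl5*, *Cxcl2* and *Cxcl16*, and 2 were lower, *Ccl2* and *Ccl7*. *Ccl7* had too few UMIs to be compared with *Xcr1* cells when the mixed barcodes were left out. *Ccl2*, which draws monocytes through *Ccr2*, had 5 and 3 UMIs in members, or 15.1 and 4.90 CPM, against 128 and 84.0 CPM in *Cd209a* cells and 34.8 and 30.2 CPM in *Xcr1* cells. *Ccl19*, the *Ccr7* ligand that mature dendritic cells can make, had 0 UMIs in the members of both libraries, with 32 and 71 cells sequenced, so a low level would not have been detectable. The symbol Cxcl11 was not analysed here.

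Costimulatory genes differed by the population they were set against. Of 10 compared, 3 were higher and 1 lower than in *Cd209a* cells, and of 11, 8 were higher and 0 lower than in *Xcr1* cells. *Cd40*, through which helper T cells act on dendritic cells, was at 311 and 227 CPM in members, 57.3 and 57.1 CPM in *Cd209a* cells and 34.8 and 30.8 CPM in *Xcr1* cells. *Ly75*, the endocytic receptor DEC-205, was at 398 and 405 CPM in members, 2.20 and 12.2 CPM in *Cd209a* cells and 82.5 and 91.2 CPM in *Xcr1* cells. *Cd70*, the ligand of *Cd27* on T cells, was at 45.3 and 66.9 CPM in members, 0 and 1.83 CPM in *Cd209a* cells and 0 and 0.825 CPM in *Xcr1* cells, from 7 of 32 and 12 of 71 members. These 3 genes were higher than in both populations. *Cd80* and *Cd86*, the ligands of *Cd28*, behaved unlike each other. *Cd80* was at 229 and 189 CPM in members, 77.2 and 105 CPM in *Cd209a* cells and 29.8 and 41.5 CPM in *Xcr1* cells, higher than in *Xcr1* cells in both libraries and over 2 times the *Cd209a* level in C-ON alone. *Cd86* was at 739 and 406 CPM in members, 343 and 317 CPM in *Cd209a* cells and 413 and 565 CPM in *Xcr1* cells and was called against neither. *Cd83*, a common maturation marker, was at 1295 and 1269.6 CPM in members, 1152 and 967 CPM in *Cd209a* cells and 646 and 644 CPM in *Xcr1* cells, with no call, and was higher than in *Xcr1* cells without the mixed barcodes. *Tnfsf9*, the 4-1BB ligand, was below the *Cd209a* level and above the *Xcr1* level, at 416 and 299 CPM in members, 832 and 814 CPM in *Cd209a* cells and 25.8 and 19.5 CPM in *Xcr1* cells.

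Of the checkpoint and tolerance genes, 8 of 14 were higher and 1 lower than in *Cd209a* cells, and 9 of 14 were higher and 2 lower than in *Xcr1* cells. The list shares *Cd200*, *Il4i1* and *Socs2* with the maturation program. *Cd274*, which encodes PD-L1, was at 308 and 367 CPM in members, 25.4 and 74.5 CPM in *Cd209a* cells and 39.7 and 65.4 CPM in *Xcr1* cells, from 24 of 32 and 57 of 71 members. *Pdcd1lg2*, which encodes PD-L2, was at 99.6 and 86.5 CPM in members, 2.20 and 11.9 CPM in *Cd209a* cells and 5.96 and 11.0 CPM in *Xcr1* cells, and 31 of the 32 members with a *Pdcd1lg2* UMI also had one of *Cd274*. Both ligands of PD-1 were thus higher in members than in the other dendritic cells. *Fas* was at 75.5 and 68.5 CPM in members, 11.0 and 7.94 CPM in *Cd209a* cells and 5.96 and 4.12 CPM in *Xcr1* cells. *Aldh1a2*, which makes retinoic acid, was at 121 and 113 CPM in members, 1.10 and 6.72 CPM in *Cd209a* cells and 10.9 and 22.5 CPM in *Xcr1* cells, from 7 of 32 and 21 of 71 members, and 21 of the 28 members with it also held *Il12b*. *Havcr2*, which encodes TIM-3, was the reverse against *Xcr1* cells, at 57.3 and 29.4 CPM in members, 80.5 and 84.3 CPM in *Cd209a* cells and 274 and 261 CPM in *Xcr1* cells. *Ido1* had 0 UMIs in the members of both libraries.

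The NF-kB pathway was higher in 5 of 15 genes against *Cd209a* cells and in 14 of 15 against *Xcr1* cells, and lower in none of the 15 in either. The 5 genes against *Cd209a* cells were *Relb*, *Nfkb2*, *Nfkbib*, *Birc2* and *Traf1*, and *Relb* and *Nfkb2* are the subunits of the noncanonical branch. *Relb* was at 404 and 377 CPM in members, 71.6 and 59.6 CPM in *Cd209a* cells and 39.7 and 39.9 CPM in *Xcr1* cells. *Nfkb2* was at 223 and 140.3 CPM in members, 52.9 and 45.2 CPM in *Cd209a* cells and 22.9 and 37.1 CPM in *Xcr1* cells. The canonical subunits stood closer to the *Cd209a* cells: *Rel* was at 703 and 697 CPM in members, 446 and 324 CPM in *Cd209a* cells and 193 and 200.1 CPM in *Xcr1* cells, and *Nfkb1* at 477 and 277 CPM in members, 331 and 353 CPM in *Cd209a* cells and 131 and 132 CPM in *Xcr1* cells. *Nfkbia*, the inhibitor induced by canonical signalling, was at 1865 and 1808 CPM in members, 2035 and 1884 CPM in *Cd209a* cells and 283 and 294 CPM in *Xcr1* cells. *Rela*, at 69.4 and 71.8 CPM in members, 68.3 and 62.9 CPM in *Cd209a* cells and 36.8 and 38.5 CPM in *Xcr1* cells, was the gene of the list called in neither comparison. *Traf1*, an adaptor of TNF receptors, was at 661 and 645 CPM in members, 246 and 226 CPM in *Cd209a* cells and 99.4 and 92.1 CPM in *Xcr1* cells.

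Of the survival genes 4 of 12 were higher than in *Cd209a* cells and 6 of 12 than in *Xcr1* cells, with *Birc2* and *Birc3* shared with the NF-kB list. *Bcl2l14*, a BCL-2 family member, was at 447 CPM (95% interval 378 to 525) in C-ON and 413 CPM (364 to 467) in FMC_new, from 16 of 32 and 29 of 71 members, against 0 and 1 UMIs in *Cd209a* cells and 21.9 and 26.4 CPM in *Xcr1* cells. *Cflar*, which blocks caspase 8, was at 272 and 169.7 CPM in members, 114 and 73.6 CPM in *Cd209a* cells and 26.8 and 32.4 CPM in *Xcr1* cells. *Bcl2* and *Mcl1* were not called against either population, though *Bcl2* was lower than in *Xcr1* cells without the mixed barcodes.

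MHC class I and class II genes went in different directions against *Cd209a* cells. Of 16 class I pathway genes 9 were higher and 0 lower, with a median log2 ratio of 1.18, while of 12 class II pathway genes outside the rule 1 was higher and 2 were lower, with a median of -0.84. The light chain *B2m* was at 3522 and 4553 CPM in members, 1595 and 2068 CPM in *Cd209a* cells and 1903 and 2205 CPM in *Xcr1* cells. *Psme2*, a subunit of the proteasome activator, was at 1183 and 1431 CPM in members, 176 and 276 CPM in *Cd209a* cells and 512 and 491 CPM in *Xcr1* cells, and was the only class I gene higher than in *Xcr1* cells, of 16, when all members were used. Without the mixed barcodes 3 were, with *B2m* and *H2-Q7* added.

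*H2-DMa* and *H2-DMb1*, the chains of the peptide editor H2-DM, were lower than in both populations, *H2-DMa* at 335 and 390.0 CPM in members, 812 and 889.5 CPM in *Cd209a* cells and 998 and 936 CPM in *Xcr1* cells and *H2-DMb1* at 154 and 113 CPM in members, 683 and 610.3 CPM in *Cd209a* cells and 712 and 588 CPM in *Xcr1* cells. *Cd74* was at 18422 and 20899.7 CPM in members, 43426 and 38554 CPM in *Cd209a* cells and 30598 and 30602 CPM in *Xcr1* cells, and was at most 1/2 of the comparison level only in C-ON against *Cd209a* cells. *Lgmn*, a lysosomal protease, was higher than in both at 214 and 171 CPM in members, 72.7 and 59.9 CPM in *Cd209a* cells and 21.9 and 21.4 CPM in *Xcr1* cells, and oligodendrocyte-rule cells held 191 and 188 CPM of it. The class II chains themselves were used by the rule. In members *H2-Aa* was at 6525 and 8142 CPM, beside 15343 and 14591 CPM in *Cd209a* cells and 11746 and 12421 CPM in *Xcr1* cells. The symbol Marchf1 was not analysed here.

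Uptake and sensing genes were lower mainly against *Cd209a* cells. Of 13 compared 8 were lower and 1 higher than in *Cd209a* cells, and 4 of 10 were lower than in *Xcr1* cells, or 2 of 8 when the mixed barcodes were left out. *Fcgr2b*, the inhibitory Fc receptor, was at 51.3 and 57.1 CPM in members, 564 and 336 CPM in *Cd209a* cells and 46.7 and 36.3 CPM in *Xcr1* cells. *Mrc1*, the mannose receptor, was at 3.02 and 3.26 CPM in members, 131 and 86.5 CPM in *Cd209a* cells and 0.994 and 0.550 CPM in *Xcr1* cells. *Lyz2*, which encodes lysozyme, was at 99.6 and 62.0 CPM in members, 951 and 747 CPM in *Cd209a* cells and 223 and 258 CPM in *Xcr1* cells, and *Cd68* at 57.3 and 49.0 CPM in members, 199.5 and 203 CPM in *Cd209a* cells and 117 and 137 CPM in *Xcr1* cells, and both were lower than in both populations. *Cd68* was not called against *Xcr1* cells without the mixed barcodes. *Cd36*, a scavenger receptor, was at 57.3 and 8.16 CPM in members, 0 and 2.14 CPM in *Cd209a* cells and 216 and 258 CPM in *Xcr1* cells, higher than in *Cd209a* cells and lower than in *Xcr1* cells. In oligodendrocyte-rule cells *Lyz2* was at 16.4 and 70.4 CPM, so that in FMC_new its level in members was no higher than in these cells. Single cells among them held up to 719 macrophage and 738 neutrophil marker UMIs in FMC_new, against medians of 2 and 0. The part of such cells in their *Lyz2* level was not tested. The symbol Clec7a was not analysed here. Interferon-stimulated genes were higher in 6 and lower in 1 of 16 against *Cd209a* cells, and higher in 2 and lower in 2 of 17 against *Xcr1* cells, without *Mx1*, which was not analysed here. *Gbp2* and *Gbp5*, guanylate-binding proteins induced by interferon gamma, were higher in both comparisons, *Gbp2* at 154 and 150.1 CPM in members, 24.2 and 35.7 CPM in *Cd209a* cells and 27.8 and 26.9 CPM in *Xcr1* cells.

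**Figure D4:**
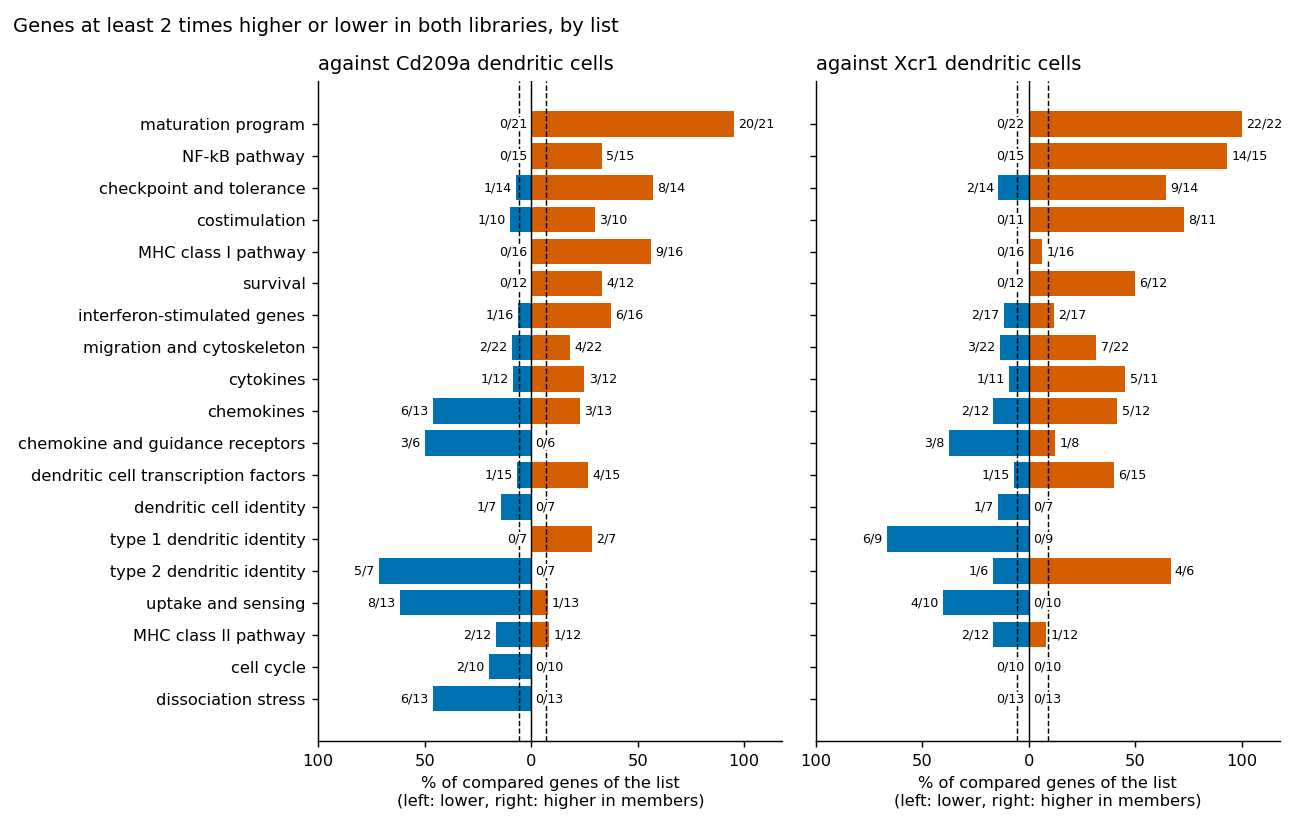
For each gene list the bars give the percent of compared genes that were higher (right, orange) or lower (left, blue) in members in both libraries, against *Cd209a* cells (left panel) and *Xcr1* cells (right panel), with the counts written beside them. Dashed lines are the shares over all compared genes, 7.09% and 5.6% on the left and 9.22% and 5.29% on the right. The maturation program reaches 20 of 21 and 22 of 22 genes.

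Genes shared by conventional dendritic cells were present in members at the level of the other populations. *Flt3* was at 166 and 147 CPM in members, 108 and 115 CPM in *Cd209a* cells and 150.0 and 205 CPM in *Xcr1* cells, and *Zbtb46* at 112 and 124 CPM in members, 66.1 and 70.6 CPM in *Cd209a* cells and 49.7 and 82.2 CPM in *Xcr1* cells. Neither was called in a comparison. Of the 7 genes of the list, *Itgax* was lower than in *Cd209a* cells and *Btla* lower than in *Xcr1* cells, and without the mixed barcodes neither was called. Subset genes were mostly lower than in the cells of their own subset. Of 7 compared type 2 genes 5 were lower than in *Cd209a* cells, and of 9 type 1 genes 6 were lower than in *Xcr1* cells. *Cd209a*, *Xcr1* and *Clec9a* defined the comparison cells and are left out of these counts. Against the opposite populations 2 of 7 type 1 genes were higher than in *Cd209a* cells, and 4 of 6 type 2 genes higher than in *Xcr1* cells.

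*Irf8*, the transcription factor of type 1 cells, was at 839 and 537 CPM in members, 8.82 and 60.5 CPM in *Cd209a* cells and 985 and 931 CPM in *Xcr1* cells. *Batf3* was at 133 and 189 CPM in members, 29.8 and 53.8 CPM in *Cd209a* cells and 117 and 126 CPM in *Xcr1* cells. Both were higher than in *Cd209a* cells and uncalled against *Xcr1* cells. *Irf4*, the factor of type 2 cells, was at 36.2 and 32.6 CPM in members, 65.0 and 67.2 CPM in *Cd209a* cells and 5.96 and 12.6 CPM in *Xcr1* cells, higher than in *Xcr1* cells, and without the mixed barcodes lower than in *Cd209a* cells. Among 15 transcription factors 4 were higher and 1 lower than in *Cd209a* cells, and 6 higher and 1 lower than in *Xcr1* cells. *Stat4*, which transmits interleukin-12 signals, was higher in both, at 241 and 328 CPM in members, 107 and 92.9 CPM in *Cd209a* cells and 0.994 and 16.2 CPM in *Xcr1* cells. *Nr4a3*, known to be needed for *Ccr7* dendritic cell migration, was at 462 and 485 CPM in members, 232 and 225 CPM in *Cd209a* cells and 114 and 172 CPM in *Xcr1* cells, higher than in *Xcr1* cells, and without the mixed barcodes higher than in both.

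Some members still held a transcript that marks a subset. *Xcr1* or *Clec9a* without *Cd209a* or *Mgl2* was found in 6 of 32 and 17 of 71 members, *Cd209a* or *Mgl2* without *Xcr1* or *Clec9a* in 6 and 10, both kinds in 1 and 2, and neither in 19 and 42. The split was chosen after levels were seen, and the groups are small. In members with the type 1 transcripts *Il12b* was found in 18 of 23, at 1074 CPM (850.4 to 1339) in C-ON and 3337 CPM (3063 to 3629) in FMC_new, with exact Poisson 95% intervals. In members with the type 2 transcripts it was found in 4 of 16, at 875 CPM (675 to 1115) and 322 CPM (204 to 483). The C-ON value came from 1 cell, and the intervals of the 2 groups overlapped in C-ON and were apart in FMC_new. When the mixed barcodes were left out, *Il12b* in the type 2 group was at 1909 and 359.6 CPM, so that in C-ON it stood above the type 1 group, again from 1 cell, and in FMC_new below it. By CPM the order of the 2 groups in C-ON thus depended on the mixed barcodes. By members with an *Il12b* UMI the order was the same in both libraries. With all members these were 5 of 6 (type 1) against 1 of 6 (type 2) in C-ON and 13 of 17 against 3 of 10 in FMC_new.

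*Ccl17* was higher in the type 2 group of both libraries, with 435 and 811 CPM in members with type 1 transcripts and 1440.5 and 1777 CPM in those with type 2 transcripts. *Il1b* was at 408 and 488 CPM against 2289 and 2533 CPM. *Cd70* was found in 7 of 23 against 0 of 16 members. For *Ccl17* and *Il1b* the intervals of the 2 groups were apart in both libraries, but they cover counting error only and not the spread between cells. *Ccl17* was found in 3 of 6 (type 1) and 4 of 6 (type 2) members in C-ON, and in 12 of 17 and 9 of 10 in FMC_new. This split overlaps with that by *Ccr7* UMIs. *Mgl2* was found in 6 of 58 members with at least 10 *Ccr7* UMIs and 12 of 45 with fewer, and *Cd70* in 15 and 4. *Il1b* stood at 616 and 542 CPM against 1976 and 1284 CPM, and *Ccl17* at 945 and 510 CPM against 1013 and 969 CPM. Whether the differences go with the subset transcripts or with the *Ccr7* level was not tested. Without the mixed barcodes the type 2 group held 3 and 9 cells, and *Ccl17* was at 2702 and 1954 CPM and *Il1b* at 2526 and 1986 CPM in it. The *Ccl17* value of C-ON came from 2 of these 3 cells. Members with neither kind of transcript had 2113 and 1833 CPM of *Il12b*, 1022 and 468 CPM of *Ccl17* and 853 and 565 CPM of *Il1b*. *Ccl22*, a gene of the rule, was at 339.9 and 897 CPM in members with type 1 transcripts against 323 and 826 CPM in those with type 2 transcripts. Its intervals overlapped in both libraries. In members with an *Irf8* UMI *Il12b* was found in 48 of 71, and in 8 of 32 without one, with 0 of 8 in C-ON and 8 of 24 in FMC_new. Shares without a UMI depend on depth, and the median depth with and without an *Irf8* UMI was 9972 and 11244 UMIs in C-ON and 8432 and 7008 in FMC_new.

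**Figure D5:**
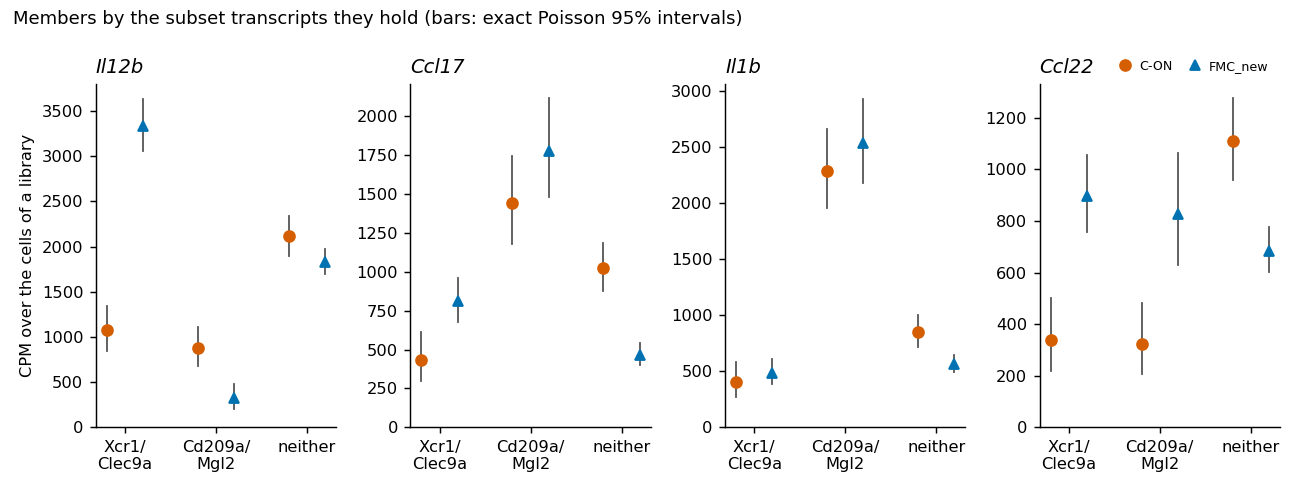
CPM of *Il12b*, *Ccl17*, *Il1b* and *Ccl22* over the members with *Xcr1* or *Clec9a* transcripts only (6 and 17 cells), with *Cd209a* or *Mgl2* only (6 and 10) and with neither (19 and 42). Circles are C-ON, triangles FMC_new, and bars exact Poisson 95% intervals, which cover counting error only. *Ccl17* and *Il1b* are higher in the second group in both libraries. *Ccl22* was used by the rule.

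Receptors other than *Ccr7* were mostly low or too rare to compare. Of 6 compared 3 were lower and 0 higher than in *Cd209a* cells, and of 8, 3 were lower and 1, *Cx3cr1*, higher than in *Xcr1* cells. When the mixed barcodes were left out, 4 of 7 were lower and 0 higher than in *Xcr1* cells. *Ccr2*, the receptor of *Ccl2*, was at 42.2 and 9.79 CPM in members, 215 and 192 CPM in *Cd209a* cells and 193 and 279 CPM in *Xcr1* cells, lower than in both populations. *Gpr183*, which senses oxysterols, was at 181 and 183 CPM in members, 149 and 187 CPM in *Cd209a* cells and 110.3 and 122 CPM in *Xcr1* cells and was not called. *Cxcr4* was at 36.2 and 44.1 CPM in members, 29.8 and 36.4 CPM in *Cd209a* cells and 40.7 and 24.7 CPM in *Xcr1* cells, also with no call. Of 22 migration and cytoskeleton genes 4 were higher and 2 lower than in *Cd209a* cells, and 7 higher and 3 lower than in *Xcr1* cells. *Myo1g*, a membrane-linked myosin, was at 377 and 290.5 CPM in members, 148 and 96.2 CPM in *Cd209a* cells and 64.6 and 54.4 CPM in *Xcr1* cells, *Swap70*, an actin regulator of dendritic cells, at 281 and 196 CPM in members, 56.2 and 58.0 CPM in *Cd209a* cells and 39.7 and 37.6 CPM in *Xcr1* cells, and *Marcks* at 748 and 873 CPM in members, 279 and 279 CPM in *Cd209a* cells and 221 and 224 CPM in *Xcr1* cells. These were higher than in both. *Anxa1* was lower than in both, at 36.2 and 17.9 CPM in members, 185 and 184 CPM in *Cd209a* cells and 214 and 199 CPM in *Xcr1* cells. *Actb* was uncalled, at 13853 and 15175 CPM in members, 7526 and 8767 CPM in *Cd209a* cells and 10086 and 11224 CPM in *Xcr1* cells.

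Of 10 cell cycle genes 0 were higher and 2 lower than in *Cd209a* cells, with a median log2 ratio of -1.20, and none was called against *Xcr1* cells, with a median of -0.72. *Mki67* was at 57.3 and 14.7 CPM in members, 43.0 and 59.9 CPM in *Cd209a* cells and 23.9 and 39.3 CPM in *Xcr1* cells. Dissociation stress genes, immediate early and heat shock genes that respond to tissue handling, were lower in 6 of 13 against *Cd209a* cells (*Fos*, *Jun*, *Egr1*, *Atf3*, *Ier2* and *Nr4a1*) and in none against *Xcr1* cells. Their summed level was 8034 and 9276 CPM in members, 18045 and 17434 CPM in *Cd209a* cells and 8473 and 9602 CPM in *Xcr1* cells. *Il1b*, *Ccl2*, *Ccl4* and *Cxcl10* were lower against the same population, and the part of dissociation in this was not tested.

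Outside the lists, genes were ranked by the ratio nearest to 1 of the 4 (2 populations, 2 libraries). *Mreg*, a melanosome transport gene, came first, at a smallest ratio of 34.3, with 181 and 126 CPM in members, 0 and 3.67 CPM in *Cd209a* cells and 0.994 and 1.37 CPM in *Xcr1* cells. *Ramp3*, an accessory protein of peptide hormone receptors, was at 229 and 163 CPM in members, 7.71 and 7.94 CPM in *Cd209a* cells and 1.99 and 1.92 CPM in *Xcr1* cells. *Igfbp4*, which binds insulin-like growth factors, was at 347 and 193 CPM in members, 3.31 and 7.03 CPM in *Cd209a* cells and 1.99 and 1.65 CPM in *Xcr1* cells, from 10 of 32 and 13 of 71 members. These genes were close to 0 in the other dendritic cells of both libraries. *Scin*, an actin-severing protein, was at 166 and 116 CPM in members, 0 and 0.611 CPM in *Cd209a* cells and 0 and 7.15 CPM in *Xcr1* cells. *Tnfrsf4*, which encodes the T cell costimulatory receptor OX40, was at 57.3 and 58.8 CPM in members, 0 and 2.44 CPM in *Cd209a* cells and 1.99 and 2.20 CPM in *Xcr1* cells. The other genes among the 15 with the highest rank were *Snn*, *Insl6*, *Mab21l3*, *Tm4sf5*, *Fgfbp3*, *Cdkn2b*, *Stap2*, *Synpo2*, *Gypc* and *Ankrd33b*, and all 15 were higher than in both populations without the mixed barcodes too. At the other end *Tgfbi*, an extracellular matrix protein, was at 6.04 and 1.63 CPM in members, 77.2 and 40.6 CPM in *Cd209a* cells and 46.7 and 38.8 CPM in *Xcr1* cells, and *Phlda1* at 6.04 and 11.4 CPM in members, 98.1 and 80.0 CPM in *Cd209a* cells and 58.6 and 75.3 CPM in *Xcr1* cells. *Tifab*, *Baiap2*, *Arrb1*, *Tm6sf1*, *Evi2*, *Slc35c2* and *Tlr11* were also among the 10 lowest, each with at most 17 UMIs in the members of a library. When the mixed barcodes were left out, *Tifab* was not called against *Xcr1* cells and *Tlr11* not against *Cd209a* cells.

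Markers of other cell types were read for the whole lists. The oligodendrocyte, B cell and macrophage lists hold the genes that define mixed barcodes. Their lower values without these barcodes thus follow in part from that definition. Oligodendrocyte markers summed to 12467 and 6696 CPM in members, against 5949.5 and 4474 CPM in *Cd209a* cells and 68436 and 56525 CPM in oligodendrocyte-rule cells, and 3 of 7 were called higher in members, *Mag* and *Cldn11* among them. Without the mixed barcodes the sum was 1777 and 1959 CPM and 0 of 7 were higher, with *Mag* lower in both comparisons. B cell markers summed to 99.6 and 209 CPM, and to 4.48 and 18.8 CPM without the mixed barcodes. Plasma cell markers summed to 1584 and 746 CPM with them and 85.0 and 638 CPM without. Macrophage markers were at 254 and 398 CPM, and at 62.7 and 126 CPM without the mixed barcodes. Microglia markers were at 163 and 199 CPM, and at 134 and 102 CPM without them. Of the T cell markers *Trac* had 0 UMIs in members, and the summed 75.5 and 86.5 CPM were mostly *Il7r*, at 60.4 and 76.7 CPM. *Il7r* was higher than in *Cd209a* cells with all members and not called without the mixed barcodes. Against *Xcr1* cells it was higher both with and without them. Neutrophil markers were at 3.02 and 34.3 CPM, NK and ILC markers at 30.2 and 11.4 CPM and monocyte markers at 456 and 357 CPM, or 125 and 146 CPM without the mixed barcodes. Plasmacytoid markers summed to 609.6 and 770.3 CPM, mostly *Bst2*, while their defining gene *Siglech* had 2 and 3 UMIs in members, lower than in *Cd209a* cells with all members and not called without the mixed barcodes. Tumor and OPC markers summed to 178 and 479.8 CPM, and to 4.48 and 473 CPM without the mixed barcodes. The last value was unevenly spread: the highest cell held 109 UMIs, and 2 of 58 cells held at least 5.

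Soluble mediators and receptors known from the circuit of T cells, microglia and tumor cells in this glioma were also read. Of 13 compared genes 2 were higher (*Ccl5* and *Csf1*) and 5 lower than in *Cd209a* cells, with *Ccl2*, *Ccl4*, *Il1b* and *Ccr2* among the lower ones, and 4 were higher and 2 lower of 14 against *Xcr1* cells. *Ccl5*, which sustains optic glioma growth when made by microglia, had 7.76% and 3.58% of its UMIs of all kept cells in members. *Ccl4*, which can raise *Ccl5* in microglia, was at 332 and 269 CPM in members, 777 and 999.8 CPM in *Cd209a* cells and 318 and 547 CPM in *Xcr1* cells, and was lower than in *Xcr1* cells too when the mixed barcodes were left out. *Mdk*, midkine, had 6 and 17 UMIs in members and *Ptn* was at 69.4 and 57.1 CPM, with 810.1 and 639.7 CPM in oligodendrocyte-rule cells.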

How the data were processed

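Optic nerve suspensions of Nf1OPG mice, made with a neural dissociation kit with debris and myelin removal, were run with a 5′ single-cell kit, 1 library each for C-ON and FMC_new. The deposited files held raw UMI counts of 32285 gene IDs per barcode, made by the authors with Cell Ranger 7.2.0 per the labels and an mm10 reference. Whether intronic reads were counted is not given in the sources used here, and T cell receptor libraries were not used here. Gene IDs of the same symbol were summed, which gave 32245 symbols. Gene positions came from GENCODE vM21 by gene ID.

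UMIs were summed per library and population with Python 3.11.15, numpy 2.4.6, scipy 1.17.1 and pandas 2.3.3, and shown as CPM with exact Poisson intervals, shares with exact Clopper-Pearson intervals and ratios with conditional binomial intervals, all at 95%. Shares at equal depth came from cells thinned to 1000 UMIs with a fixed seed. Scripts were tested on simulated data. No differential test was run, since there was 1 group of 2 libraries and the members were chosen on measured values. Named genes were all members of 33 lists (359 of 363 genes found), and outside the lists the 15 highest and 10 lowest by the ratio nearest to 1 of the 4. The members and lists were chosen with earlier results of these data known. Some genes of the lists and ranks are not reported here. Scrublet came from scanpy 1.11.5. Alternatives are given in the closing section.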

Additional observations from a re-analysis of the deposited data

How the results depend on the processing

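Under the alternatives, 27 recomputed counts stayed within 1.5 times the value reported and 20 did not. The count of members was 52 when cells were thinned to 2000 UMIs, 58 with at least 10 *Ccr7* UMIs, a limit chosen after seeing the data, and 32 to 71 with either library left out. With a ratio of at least 4 the counts of genes were 155 higher and 91 lower against *Cd209a* cells, and 216 higher and 76 lower against *Xcr1* cells. With at least 30 UMIs they were 362 higher and 309 lower against *Cd209a* cells and 445 higher against *Xcr1* cells. With at least 1 UMI, 965 and 1325 genes were higher. With either library left out, the counts of the remaining library alone were 1368 to 1638 higher and 1120 to 1492 lower against *Cd209a* cells, and 1516 to 1859 higher and 1147 to 1413 lower against *Xcr1* cells. With the mean of each cell's CPM, 571 genes were higher and 590 lower than in *Xcr1* cells. No alternative without doublets was run, since Scrublet called 0 members. No paired analysis was possible because there was 1 group and no test. The 32 members of C-ON limit what low genes can show there.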
